A study of Homo sapiens with 4 samples.

Results

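The genes described here are 44 components of the interferon pathway: receptors, their kinases, transcription factors and genes that interferons induce. They were taken by symbol from the 22985 named genes of the study, and all 44 were listed in the deposited tables. The study sequenced total RNA, after removal of ribosomal RNA, from 2 human prostate cancer cell lines with 2 libraries each. LNCaP, labelled as primary prostate cancer, was derived from a lymph node metastasis and depends on androgen. C4-2, labelled CRPC (castration-resistant prostate cancer), is a subline of LNCaP obtained by passage through castrated mice. Both lines were grown in RPMI medium with serum from which steroids had been stripped with charcoal, and no interferon treatment is named in the labels. Whether both libraries of a line stem from different cultures is not told by the labels. The p-values therefore reflect only how far these samples spread, and that spread may be technical.

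The names under which the tables are stored give each sample the other line's name. Groups follow the sample titles here, and every direction would turn round if the stored names were right. Sense tags of named genes numbered between 58.9 and 70.5 M (in units of 1000000) in the libraries labelled LNCaP and between 119.1 and 163.1 M in those labelled C4-2. As a share of the totals from which the deposited RPKM values were computed, these tags amounted to 31.03% and 35.65% for LNCaP and to 67.67% and 69.43% for C4-2. This difference in exon share moves with the lines, and its part in the results was not tested. All 10 luminal prostate markers examined were expressed, with a summed level of 2850 to 2880 CPM in LNCaP and 3480 to 3530 CPM in C4-2. Leukocyte markers summed to 3.71 and 3.94 CPM against 2.30 and 2.42 CPM, and the T and B cell markers CD3E and MS4A1 had 0 tags in every library. Other leukocyte markers had sense tags: LYZ had means of 1.64 CPM in LNCaP and 0.841 in C4-2, and CD68 had 1.66 and 1.42. Most tags at both genes lay on the opposite strand, 55.7% to 68.6% at LYZ and 53.9% to 81.0% at CD68. Whether their sense tags stem from the mRNA alone is therefore uncertain. Endothelial markers summed to 3.40 to 4.73 CPM and fibroblast markers to 6.92 to 11.2 CPM, with COL1A2 at 0, over all 4 libraries. Among those detected, VWF had means of 4.18 CPM in LNCaP and 3.42 in C4-2. COL1A1 had means of 7.51 and 2.69 CPM, and COL3A1 of 1.16 and 2.99.

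Type I interferons bind the receptor pair IFNAR1 and IFNAR2, which signals through the kinases JAK1 and TYK2, and interferon gamma binds IFNGR1 and IFNGR2, which signal through JAK1 and JAK2. The kinases phosphorylate STAT proteins. STAT2 and IRF9 are subunits of the factor ISGF3, which binds interferon-stimulated response elements (ISRE), and interferon gamma acts through gamma-activated sites (GAS). The induced proteins sense viral RNA, block viral entry and budding, stop translation or modify proteins with the ubiquitin-like protein ISG15. LNCaP cells have been described as poorly responsive to interferon and as low in JAK1.

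To show the element that many of these genes share, the ISRE core was searched as GAAA, any 2 bases and GAAA again, on both strands of the 250 bases before each start site, read from GRCh37 at the deposited hg19 coordinates. It was found in 13 of 31 induced genes (41.9%), in 2 of the 13 receptors, kinases and factors (15.4%), and in 650 of 22985 windows of all named genes (2.83%). The palindromic GAS core TTCNNNGAA was found in 6 of the 44 windows (13.6%) against 6.20% of all windows. A match can overlap another, and it describes letters, not binding. The following stretches run 5′ to 3′ on the strand of the gene, with the ISRE core matches in capitals. They belong to the 8 genes that differed by at least 2-fold among those with a match. OAS2, IFI16 and UBE2L6 differed more than most of these but hold no match.
IFIT2: gtcctgccaaTTTCACTTTCt
IFIT5: ttacgtttagTTTCGATTTCttaagtttc
IFI44L: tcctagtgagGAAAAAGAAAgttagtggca
IFI44: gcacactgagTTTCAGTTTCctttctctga
ISG15: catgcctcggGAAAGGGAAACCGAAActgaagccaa
SAMD9: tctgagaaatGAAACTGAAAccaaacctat
BST2: tttctggGAAACTGAAACTGAAAacctaat
IFI27: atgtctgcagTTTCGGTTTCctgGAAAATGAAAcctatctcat
In hg19 these lie at chr10:91061685-91061705 (plus strand) for IFIT2, chr10:91174296-91174324 (plus) for IFIT5, chr1:79086050-79086079 (plus) for IFI44L and chr1:79115446-79115475 (plus) for IFI44. The others lie at chr1:948754-948789 (plus) for ISG15, chr7:92747409-92747438 (minus) for SAMD9, chr19:17516547-17516576 (minus) for BST2 and chr14:94576964-94577006 (plus) for IFI27. The BST2 and ISG15 windows each hold a pair of overlapping cores, from 185 to 170 bases before the start in BST2 and from 83 to 68 in ISG15. The IFIT5 and IFI44L stretches were shortened and leave out a further core of each window. That core lies from 45 to 36 bases before the start in IFIT5 and from 119 to 110 in IFI44L. In the GENCODE annotation lifted to GRCh37, the BST2 stretch also touches exons of BISPR and MVB12A, the IFIT5 stretch an exon of LIPA and the IFI44L stretch an exon of IFI44L itself, and the other printed stretches touch none. Of the 15 genes with an ISRE match 10 were higher in C4-2, 4 were lower and 1 did not pass the test. Of the 29 without a match 13 were higher, 10 lower, 5 did not pass and 1 was not tested. Among all tested genes 40.2% were higher and 39.7% lower, and the difference between genes with and without a match was not tested. Genes with the core thus stood on both sides: IFIT2 and ISG15 were higher, BST2 and IFIT5 lower.

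Levels below are counts per 1000000 sense tags (CPM) after TMM scaling, which sets the typical gene to no change. Fold changes divide the C4-2 level by the LNCaP level, with lines as labelled. A gene was called when its Benjamini-Hochberg adjusted p from edgeR's quasi-likelihood test was under 0.05 over all 15975 genes tested. Enough tags for the test were found in 43 of the 44 genes, all but MX2. Of these 23 were higher in C4-2, 14 lower and 6 not called, so that 86.0% were called against 80% of all tested genes (40.2% higher and 39.7% lower). A share so near the background says little about the pathway, and the description turns on which members moved and how far. By at least 2-fold, 7 were higher and 9 lower, against 29.8% of all tested genes (11.7% higher and 18.1% lower). The median log2 fold change was 0.26, with quartiles of -0.59 and 0.67, against -0.01 for all tested genes (quartiles -0.72 and 0.57). For 40 of the 43 genes both libraries of one line lay above both of the other, as for 89.9% of all tested genes.

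**Figure D1:**
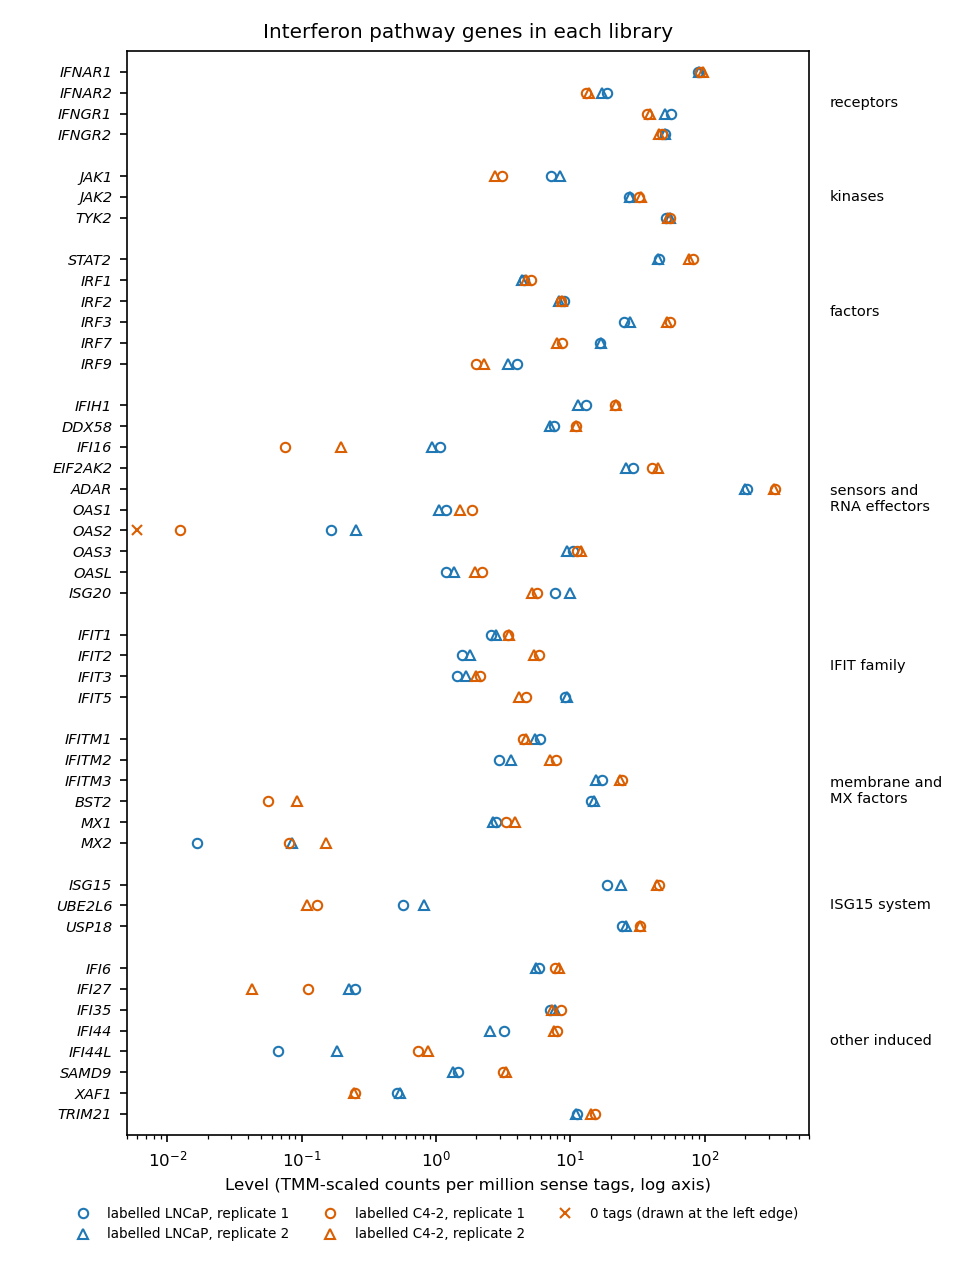
Level of each of the 44 genes in every library (x axis, TMM-scaled CPM on a log scale; genes grouped by role on the y axis; circles and triangles are replicates 1 and 2; the cross is OAS2 with 0 tags in C4-2 replicate 2). BST2, OAS2, IFI16 and UBE2L6 show the widest gaps with LNCaP higher and IFI44L the widest with C4-2 higher, while the receptor genes of the lines lie close together.

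Receptor genes were expressed in both lines and differed little. IFNAR1 had 89.7 and 90.9 CPM in LNCaP and 92.1 and 97.0 in C4-2, a log2 fold change of 0.07 ± 0.043 (SE, n = 2 libraries per line) that did not pass the test (adjusted p = 0.19). Its partner IFNAR2 had 18.9 and 17.1 CPM in LNCaP and 13.1 and 13.8 in C4-2, lower by the test (-0.43 ± 0.073, adjusted p = 8.13e-04). IFNGR1, the ligand-binding chain for interferon gamma, had 56.1 and 50.6 CPM against 37.5 and 38.9 (-0.48 ± 0.063, adjusted p = 1.53e-04). The direction of IFNAR2 and IFNGR1 holds relative to the typical gene, and on library totals both turned to higher (0.58 and 0.53). IFNGR2, the second chain, had 50.4 and 51.0 CPM against 48.2 and 45.5 and was not called (-0.11 ± 0.053, adjusted p = 0.079), or stood at 0.89 on library totals. Levels differed more between the receptor genes than between the lines: per kilobase of exon, IFNGR1 had 25.2 CPM per kb in LNCaP and 18.0 in C4-2, and IFNAR2 had 6.23 and 4.64.

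Among the kinases, JAK1 stood apart from JAK2 and TYK2. JAK1 (hg19 chromosome 1, minus strand), which serves both interferon receptor types, had 7.14 and 8.45 CPM in LNCaP and 3.08 and 2.74 in C4-2. Both C4-2 libraries lay below both LNCaP libraries, where 89.9% of all tested genes had no overlap between the lines. The log2 fold change was -1.42 ± 0.121 (adjusted p = 1.12e-05), and JAK1 also stayed lower on library totals (-0.42). JAK2 had 27.5 and 28.0 CPM against 32.6 and 33.8, slightly higher in C4-2 (0.26 ± 0.053, adjusted p = 0.0024). TYK2 had 51.9 and 55.4 CPM against 54.9 and 53.1, overlapping between the lines (0.01 ± 0.053, adjusted p = 0.88). Per kilobase of exon, JAK1 was the lowest of the 3 kinases in each line, at 1.54 CPM per kb in LNCaP and 0.576 in C4-2. JAK2 had 5.25 and 6.28 CPM per kb and TYK2 12.6 and 12.7. Of the 7 receptors and kinases 1 was thus higher, 3 lower and 3 not called (57.1% called, beside 80% of all tested genes).

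The transcription factors split into both directions. STAT2, the ISGF3 subunit that carries its activation domain, had 45.8 and 45.2 CPM in LNCaP and 81.8 and 77.0 in C4-2 (0.80 ± 0.049, adjusted p = 1.62e-06). IRF9, the subunit that recognises the ISRE, went the other way with 3.98 and 3.46 CPM against 1.97 and 2.26 (-0.82 ± 0.138, adjusted p = 7.44e-04), or 0.19 and not called on library totals. Thus STAT2 and IRF9 differed in direction relative to the typical gene. IRF3, the factor activated by viral RNA sensing, had 24.9 and 27.7 CPM against 54.8 and 52.0, a 2.03-fold higher level in C4-2 (log2 1.02 ± 0.067, adjusted p = 2.29e-06). IRF7, the factor that amplifies interferon production, had 16.5 and 16.9 CPM against 8.60 and 8.01, 2.01-fold lower (log2 -1.0 ± 0.072, adjusted p = 4.07e-06), a difference that was absent on library totals (adjusted p = 0.99).
IRF1, an activator that interferon gamma induces, had 4.49 and 4.39 CPM against 5.07 and 4.70 (0.14 ± 0.101, adjusted p = 0.24). Up to 22.4% of the tags at IRF1 lay on the opposite strand. IRF2, a repressor of the same sites, had 9.0 and 8.25 CPM against 8.55 and 8.68, with values that overlapped (adjusted p = 0.99). IRF3 overlaps BCL2L12, JAK1 overlaps RAVER2 and IFNGR2 overlaps TMEM50B, each on the opposite strand. The library kit is not stated to keep the strand, so some reads of such partners could be mixed. Over all kept transcripts, however, only 1.29% to 1.99% of tags were antisense. Antisense tags reached at most 1.0% at IRF3, 1.5% at JAK1 and 5.8% at IFNGR2.

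**Figure D2:**
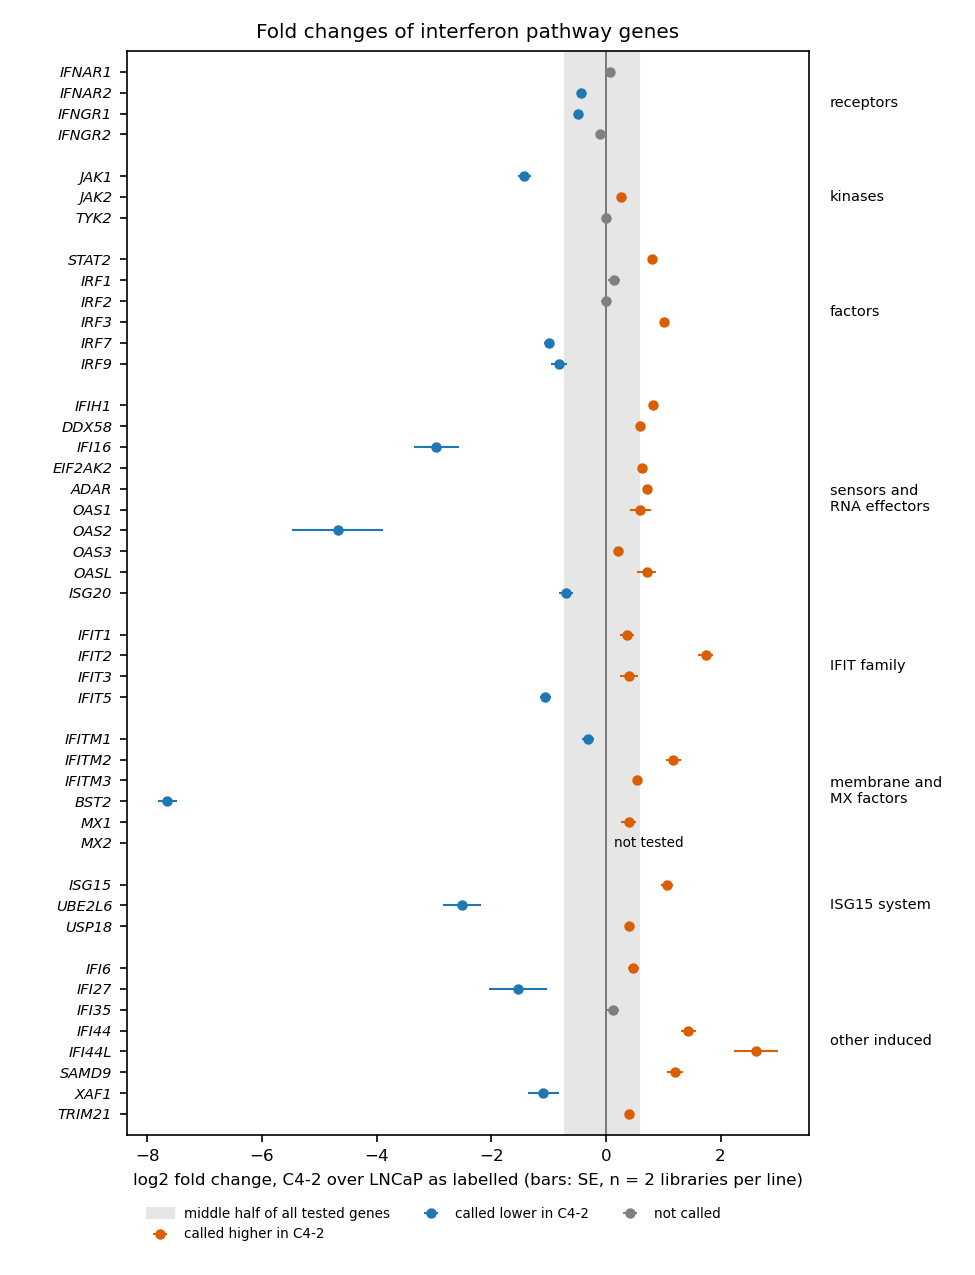
Log2 fold change of each gene, C4-2 over LNCaP as labelled, on TMM scaling (bars are SE, n = 2 libraries per line; the grey band is the range between the quartiles of all tested genes, from -0.72 to 0.57). BST2 at -7.65 and OAS2 at -4.68 lie farthest to the left and IFI44L at 2.62 farthest to the right; all points move right by about 1 on library totals, where IFNAR2, IFNGR1, IFNGR2, IRF2, IRF9, ISG20 and IFITM1 change sign.

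Among the induced genes 29 of 30 tested were called (96.7%), and among the receptors, kinases and factors 8 of 13 (61.5%), beside 80% of all tested genes. The difference between these shares was not tested, and it moved with the method: DESeq2 called 21 induced genes and 8 of the others, and library totals gave 26 and 11. Of the 30, 20 were higher, 9 lower and 1, IFI35, not called. Their median log2 fold change was 0.40 (quartiles -0.61 and 0.71), and that of the other 13 was 0.00 (quartiles -0.48 and 0.14).

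Of the 10 genes for nucleic acid sensors and effectors that act on RNA, 7 were higher in C4-2 and 3 lower (IFI16, OAS2 and ISG20). Among all tested genes 40.2% were higher and 39.7% lower. IFIH1, which encodes the RNA helicase MDA5, had 13 and 11.4 CPM in LNCaP and 21.5 and 21.8 in C4-2 (0.83 ± 0.075, adjusted p = 1.68e-05). DDX58, which encodes the helicase RIG-I, had 7.56 and 7.06 CPM against 11.1 and 11 (0.60 ± 0.078, adjusted p = 1.57e-04). EIF2AK2, the kinase PKR that halts translation on double-stranded RNA, had 29.2 and 25.9 CPM against 40.5 and 44.6 (0.63 ± 0.077). ADAR, which edits adenosines in double-stranded RNA, had the highest tag level of all 44 genes, 207 and 199 CPM in LNCaP and 332 and 329 in C4-2 (0.71 ± 0.042, adjusted p = 1.45e-06). For each of these 4 genes both C4-2 libraries lay above both LNCaP libraries. The DNA sensor gene IFI16 went the opposite way: it had 65 and 66 tags in LNCaP and 12 and 23 in C4-2, or 1.08 and 0.932 CPM against 0.0747 and 0.195. Its tag ratio was 7.97 (LNCaP over C4-2, 95% exact counting interval 5.45 to 11.9). With all libraries the log2 fold change of IFI16 was -2.96 ± 0.393 (adjusted p = 1.69e-04). Leaving out replicate 1 of C4-2 gave -2.35, and leaving out replicate 2 gave -3.72. ISG20, an RNA exonuclease gene, had 7.74 and 9.93 CPM against 5.68 and 5.18, lower relative to the typical gene (-0.70 ± 0.126, adjusted p = 0.001) but not on library totals (0.29).

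The OAS genes encode synthetases of 2'-5'-oligoadenylate, the activator of RNase L, and OAS1, OAS3 and OAS2 lie in that order on chromosome 12. OAS1 had 1.18 and 1.05 CPM in LNCaP and 1.84 and 1.52 in C4-2 (0.60 ± 0.183, adjusted p = 0.016), a call that ended without C4-2 replicate 1 (0.46, adjusted p = 0.12). OAS3 had 10.5 and 9.52 CPM against 11.3 and 12 (0.22 ± 0.081, adjusted p = 0.035), and its call ended without LNCaP replicate 2 (0.15) or C4-2 replicate 2 (0.18), with the replicate block (adjusted p = 0.061) and by DESeq2 (adjusted p = 0.075). It also ended with the stricter filter (adjusted p = 0.16) and without non-coding RNAs (adjusted p = 0.10). By DESeq2 the call of OAS1 ended too (adjusted p = 0.081). OAS2, which starts 5.2 kb past the end of OAS3, had 10 and 18 tags in LNCaP and 2 and 0 in C4-2, a tag ratio of 29.8 (LNCaP over C4-2, counting interval 7.52 to 258.0).
The fitted log2 fold change of OAS2 was -4.68 ± 0.791 (adjusted p = 7.32e-04), -7.15 without C4-2 replicate 1 and -3.95 without C4-2 replicate 2, and without LNCaP replicate 2 it had too few tags for the test. It rests on the shorter transcript, NM_001032731: the longer NM_002535 had 3 and 7 tags in LNCaP and 2 and 4 in C4-2, and the sum of the OAS2 transcripts gave -3.01. With tags of both strands it stood at -2.72, since OAS2 had 2 and 3 opposite-strand tags in LNCaP and 3 and 5 in C4-2. OASL, an OAS relative without synthetase activity, had 1.18 and 1.37 CPM against 2.21 and 1.96 (0.71 ± 0.163, adjusted p = 0.0041).

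The 4 IFIT genes, whose products bind foreign RNA ends and translation factors, lie side by side on the plus strand of chromosome 10. The first of them was higher in C4-2 and the last lower, with smaller differences at the 2 between them. IFIT2 (hg19 chromosome 10, 91061706 to 91069033) comes first. It had 1.55 and 1.79 CPM in LNCaP and 5.86 and 5.35 in C4-2, 3.35-fold higher (log2 1.74 ± 0.128, adjusted p = 4.68e-06). IFIT3, 18.6 kb further on, had 1.43 and 1.68 CPM against 2.12 and 1.99 (0.40 ± 0.153, adjusted p = 0.042). IFIT1, 51.6 kb past IFIT3, had 2.55 and 2.81 CPM against 3.45 and 3.49 (0.37 ± 0.119, adjusted p = 0.020). IFIT5 (91174325 to 91180759), 8.1 kb past IFIT1, had 9.17 and 9.44 CPM against 4.71 and 4.18, 2.09-fold lower (log2 -1.06 ± 0.096, adjusted p = 1.58e-05), or -0.06 and not called on library totals.
In LNCaP the highest level of the 4 was that of IFIT5, at 2.31 CPM per kb, whereas in C4-2 it was that of IFIT2, at 1.60 CPM per kb. IFIT2 and IFIT5 were called whichever single library was left out. That of IFIT3 did not: its call was lost when any library but LNCaP replicate 2 was left out (0.30 without LNCaP replicate 1, 0.36 and 0.45 without C4-2 replicates 1 and 2), with the replicate block (adjusted p = 0.053), with tags of both strands (0.18) and by DESeq2 (adjusted p = 0.18). It was lost as well with the stricter filter (adjusted p = 0.076) and without non-coding RNAs (adjusted p = 0.084). IFIT3 also carried 9.3% to 27.7% of its tags on the opposite strand. The call of IFIT1 ended without the same 3 libraries (0.31, 0.39 and 0.37) and by DESeq2 (adjusted p = 0.098).

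**Figure D3:**
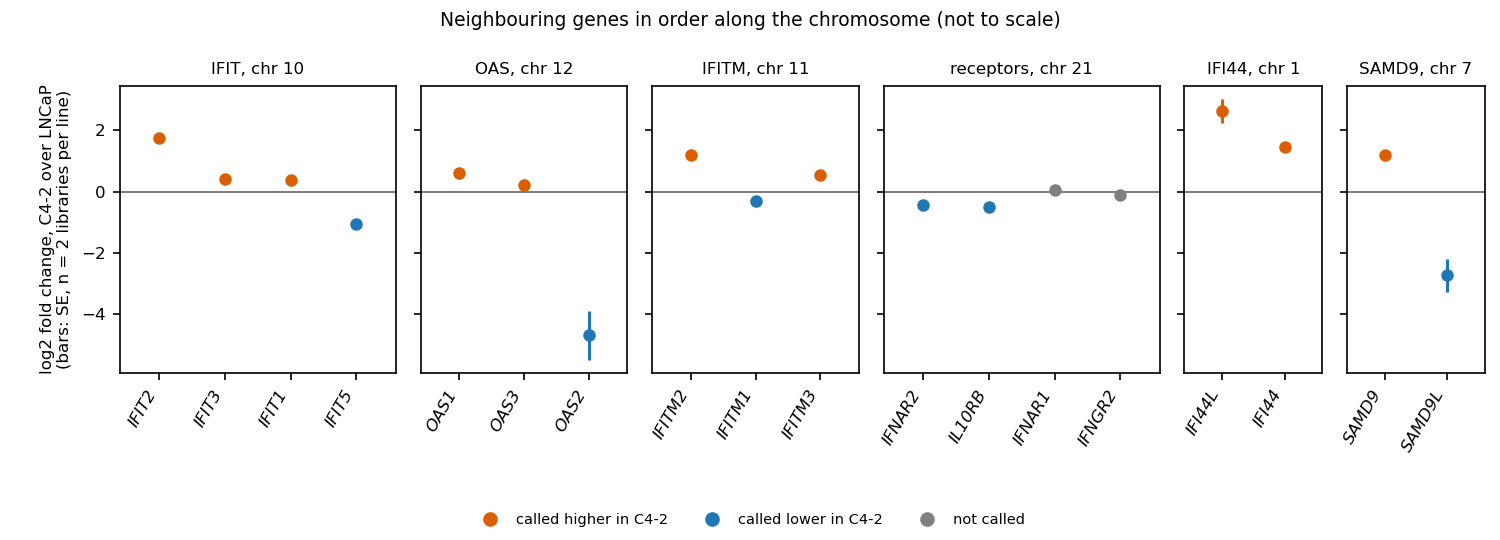
Log2 fold change of neighbouring genes in chromosome order, C4-2 over LNCaP as labelled, on TMM scaling (bars are SE, n = 2 libraries per line; x axis not to scale). Neighbours differed in direction in the IFIT, OAS, IFITM and SAMD9 groups, from IFIT2 at 1.74 to IFIT5 at -1.06, and shared it in the IFI44 pair; on library totals IFITM1, IFNAR2, IL10RB and IFNGR2 change sign.

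BST2, the gene for tetherin, which holds budding virus particles at the cell surface, showed the largest difference of the 44 genes. It lies on the minus strand of chromosome 19 (hg19, 17513755 to 17516384). BST2 had 862 and 1070 tags in LNCaP and 9 and 11 in C4-2, or 14.3 and 15.1 CPM against 0.0560 and 0.0932. The tag ratio was 206 (LNCaP over C4-2, counting interval 133.0 to 337.0), and the log2 fold change was -7.65 ± 0.167 (adjusted p = 1.26e-08). Only 96 of the 15975 tested genes had a lower fold change. BST2 ranged from -8.00 to -7.27 when single libraries were left out, and stood at -6.66 on library totals. At 15.7 CPM per kb it was among the more abundant of the 44 genes in LNCaP, and at 0.0795 among the least in C4-2.

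The IFITM genes encode small membrane proteins that block the fusion of virus and cell, and they lie within a few kilobases of each other on chromosome 11. IFITM2 had 2.95 and 3.64 CPM in LNCaP and 7.89 and 7.09 in C4-2, 2.26-fold higher (log2 1.18 ± 0.125, adjusted p = 4.22e-05). IFITM1, 4.6 kb away, had 5.91 and 5.45 CPM against 4.44 and 4.70, lower relative to the typical gene (-0.31 ± 0.100, adjusted p = 0.019) and higher on library totals (0.69). That call ended without LNCaP replicate 1 (-0.25) or C4-2 replicate 1 (-0.26) and by DESeq2 (adjusted p = 0.11). IFITM3 had 17.3 and 15.6 CPM against 24.4 and 23.4 (0.54 ± 0.068, adjusted p = 1.20e-04). The 3 IFITM genes are close copies, so reads may have been split among them and their values are uncertain.
MX1, a GTPase gene that traps viral nucleocapsids, had 2.80 and 2.68 CPM against 3.35 and 3.88 (0.40 ± 0.128, adjusted p = 0.020), and its call ended without C4-2 replicate 2 (0.30) and by DESeq2 (adjusted p = 0.075). Its neighbour MX2 had 1 and 6 tags in LNCaP and 13 and 18 in C4-2, too few for the test, with a tag ratio of 2.08 (C4-2 over LNCaP, counting interval 0.899 to 5.60).

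Within the ISG15 system the modifier and its conjugating enzyme went opposite ways. ISG15 (hg19 chromosome 1, plus strand) had 18.6 and 23.8 CPM in LNCaP and 45.6 and 43.8 in C4-2, 2.10-fold higher (log2 1.07 ± 0.103, adjusted p = 2.37e-05). Per kilobase its mean was 31.9 CPM per kb in LNCaP and 67.1 in C4-2. It had the highest level of the 44 genes in both C4-2 libraries and in LNCaP replicate 2, while in LNCaP replicate 1 ADAR stood above it (31 against 27.9 CPM per kb). UBE2L6, the conjugating enzyme for ISG15, had 34 and 58 tags in LNCaP and 21 and 13 in C4-2, or 0.566 and 0.819 CPM against 0.131 and 0.110. Its tag ratio was 5.76 (LNCaP over C4-2, counting interval 3.85 to 8.81), and it stood at -2.51 ± 0.336 (adjusted p = 1.81e-04), or -1.52 on library totals. USP18, the protease that removes ISG15 and also restrains IFNAR2 signalling, had 24.4 and 25.9 CPM against 33.2 and 33.2 (0.40 ± 0.056, adjusted p = 2.41e-04). USP18 has a near-identical copy, so its value is uncertain.

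Among the remaining induced genes, the neighbours IFI44L and IFI44 on chromosome 1 were both higher in C4-2. IFI44L, which lies 3.6 kb before IFI44, had 4 and 13 tags in LNCaP and 119 and 103 in C4-2, a tag ratio of 6.13 (C4-2 over LNCaP, counting interval 3.74 to 10.7). Its fold change, 2.62 ± 0.387 on the log2 scale (adjusted p = 3.27e-04), was the highest of the 44 genes, and without LNCaP replicate 2 it stood at 3.57. IFI44 had 3.23 and 2.53 CPM in LNCaP and 7.92 and 7.59 in C4-2, 2.71-fold higher (log2 1.44 ± 0.125, adjusted p = 1.30e-05). SAMD9, an antiviral gene, had 1.46 and 1.34 CPM against 3.15 and 3.35 (1.21 ± 0.137, adjusted p = 6.36e-05). SAMD9L, its paralogue 12 kb away and not among the 44 genes, had 15 and 20 tags in LNCaP and 9 and 2 in C4-2 (-2.73 ± 0.540, adjusted p = 0.0018), with 33.3% to 57.1% of its tags on the opposite strand.
IFI6, a mitochondrial survival gene, had 5.86 and 5.51 CPM against 7.67 and 8.21 (0.48 ± 0.091, adjusted p = 0.0014). TRIM21, an antibody receptor and ubiquitin ligase gene, had 11.3 and 11.1 CPM against 15.2 and 14.3 (0.40 ± 0.070, adjusted p = 9.06e-04). IFI35 had 7.04 and 7.66 CPM against 8.58 and 7.34, which overlapped (0.12 ± 0.104, adjusted p = 0.32). Against these, IFI27 had 15 and 16 tags in LNCaP and 18 and 5 in C4-2, a tag ratio of 2.87 (LNCaP over C4-2, counting interval 1.62 to 5.15). The call of IFI27 (-1.53 ± 0.505, adjusted p = 0.023) ended without LNCaP replicate 1 (-1.46) or C4-2 replicate 2 (-1.07), by DESeq2 (adjusted p = 0.14) and on library totals (-0.54), and without C4-2 replicate 1 it stood at -2.43. XAF1, a pro-apoptotic gene, had 0.516 and 0.537 CPM against 0.249 and 0.246 (-1.09 ± 0.275, adjusted p = 0.0067), not called by DESeq2 (adjusted p = 0.098) or on library totals (-0.09).

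All directions so far were set against the typical gene. When the totals used for RPKM served as library sizes instead, this moved the median of all tested genes from -0.011 to 0.992 and that of the 43 tested members from 0.26 to 1.26. On that scaling 32 members were higher and 5 lower, with 28 higher by at least 2-fold. Since this scaling adds about the same amount to every gene, the 23 genes that were higher by TMM could only stay higher, which is no sign of stability. Of the 14 that were lower by TMM, 5 remained lower (BST2, OAS2, IFI16, UBE2L6 and JAK1), 6 were not called and 3 turned to higher (IFNAR2, IFNGR1 and IFITM1). Fewer cells with a transcript and less RNA per cell cannot be told apart in these bulk samples.

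**Figure D4:**
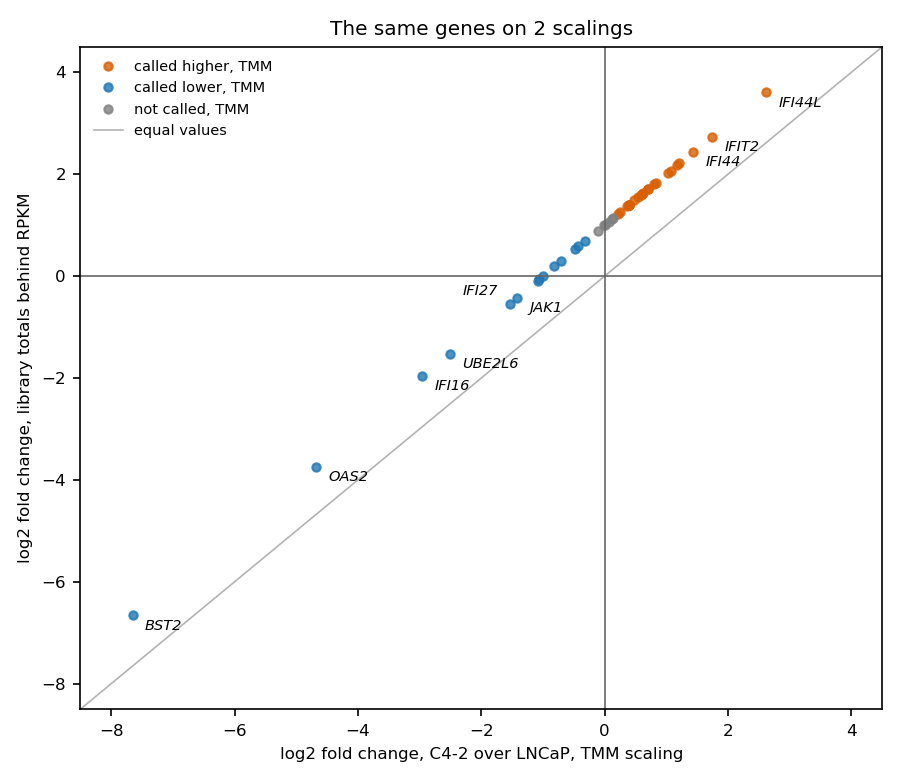
Log2 fold change (C4-2 over LNCaP as labelled) of the 43 tested genes on TMM scaling (x axis) and on the library totals behind RPKM (y axis), each point a gene. All points lie above the line of equal values; BST2, OAS2, IFI16, UBE2L6 and JAK1 are the 5 genes called lower on both scalings.

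Transcript choice mattered little outside OAS2. For 17 of the 18 members with several listed transcripts, the log2 ratios of the transcripts of a gene lay within 0.18 of each other. The exception, OAS2, spanned 2.82, from -4.60 to -1.78. IRF3, with 9 transcripts, ranged from 1.01 to 1.07, and ADAR, with 5, stayed at 0.71. The transcripts share exons and therefore tags.

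Interferon genes themselves were at or near 0. Of 21 listed interferon genes 18, among them IFNG and all 13 IFNA genes listed, had 0 sense tags in every library, which allows at most 0.0499 CPM in the shallowest library and 0.0187 in the deepest (3 tags, counting error only). IFNB1 had 2 and 2 tags in LNCaP and 0 in both libraries of C4-2, and IFNL2 and IFNL3 had at most 2 in any library. Transcripts of those 18 genes were not detected at this depth. How the counts treated reads that match several similar genes is not given in the sources used here.

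Other genes of the pathway, the rest of a pathway list, moved in both directions as well. Of 101 such genes 73 had enough tags, of which 29 were higher, 23 lower and 21 not called (71.2% called, with a median of 0.10). Of all tested genes 80% were called (40.2% higher and 39.7% lower), with a median of -0.01. Among the lambda receptor, other factors and negative regulators, 5 of 12 tested were higher and 3 lower. STAT3, a factor that cytokines such as interleukin 6 activate, had 140 and 135 CPM in LNCaP and 337 and 331 in C4-2 (1.28 ± 0.043, adjusted p = 8.82e-08), and the phosphatase genes PTPN11 and PTPN6 stood at 0.73 and 0.56. IL10RB, which lies 1.8 kb past IFNAR2 and encodes a chain of the lambda receptor, had 16.4 and 16.4 CPM against 11.6 and 11.6, lower by TMM (-0.50 ± 0.063) and higher on library totals (0.50).

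Of 11 tested genes that act upstream of interferon, 7 were higher and 2 lower, beside 40.2% higher and 39.7% lower among all tested genes. The ubiquitin ligase gene TRIM25, which activates RIG-I, stood at 0.77 ± 0.039, TRAF3 at 0.82 and the adaptor gene MAVS at 0.58. DHX58, the gene for LGP2, a helicase related to RIG-I and MDA5, went against them with 5.16 and 5.83 CPM in LNCaP and 0.635 and 0.576 in C4-2 (-3.18 ± 0.146, adjusted p = 3.60e-07). Thus of the 3 RIG-I-like helicase genes IFIH1 and DDX58 were higher in C4-2 and DHX58 was lower. Among other interferon-stimulated genes 17 of 50 tested were higher, 18 lower and 15 not called, beside 80% of all tested genes called. GBP2, an interferon-induced GTPase gene, had 1.86 and 1.86 CPM in LNCaP and 7.97 and 8.05 in C4-2 (2.10 ± 0.103), and APOL2 stood at 1.72. CNP, at 1.78, carried up to 32.7% of its tags on the opposite strand. PARP14 was lower, with 24.1 and 22.8 CPM against 0.629 and 0.822 (-5.04 ± 0.118). From 3.5% to 37.7% of its tags were on the opposite strand. These were 52 and 59 tags in LNCaP, beside 1449 and 1617 sense tags. In C4-2 they were 61 and 45, beside 101 and 97 sense tags.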

How the data were processed

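Total RNA of LNCaP and C4-2 cells was sequenced in 2 libraries per line. The submitters' processing notes name TopHat2 (version 2.0.6), Bowtie and the build hg19, also written GRCh37. A counting tool and its annotation version: not given in the sources used here. The authors deposited raw tag counts and RPKM values per strand for 41351 RefSeq entries, per the file headers. The sense column was used, because only 1.29% to 1.99% of tags of the kept transcripts were antisense. Library totals and exon lengths were recovered from the deposited RPKM values.

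Symbols, and nothing else, were taken from RefSeq's gene table for GRCh38.p14 (38974 of 40304 accessions, 22985 symbols). DDX58 is listed there as RIGI. Entries without a symbol held 2.06% to 2.15% of sense tags and stayed out. Each symbol was represented by its transcript of largest tag share, averaged over libraries.

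Counts were tested with edgeR 4.0.16 (R 4.3.3): filter on low counts, TMM, quasi-likelihood test on cell line alone, Benjamini-Hochberg adjustment over 15975 genes. The procedure was also run on simulated counts in which few genes were changed. In the data 80% of all tested genes were called, so that run cannot check TMM scaling under so broad a difference. The SE is the absolute log2 fold change over the square root of F. Counting intervals are exact at 95% and cover counting error only. Alternatives were DESeq2 1.42.0 and its size factors, 2 other filters, library totals, a replicate block, summed transcripts, tags of both strands, no non-coding RNAs, and each library left out.

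All members are accounted for. Receptors, kinases, factors and members called at 2-fold or more were to be given in every library. Of the other genes, up to 4 called per list by adjusted p and those at a member's locus were named. Promoter windows were planned from RefSeq's promoter table and were read instead from GRCh37 at the start of the kept transcript, the build of the files. The members and lists were chosen with earlier results of these data known. Some genes of the other lists are not reported here.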

Additional observations from a re-analysis of the deposited data

Results flagged for a closer look

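Opposite-strand tags lie outside the comparison. At XAF1 they made up 50% to 56.8% of the tags, and at least 20% in each library, which no other of the 44 genes did. XAF1 had 33 and 50 opposite-strand tags in LNCaP and 48 and 29 in C4-2, beside 31 and 38 sense tags in LNCaP and 40 and 29 in C4-2. No other listed gene overlaps XAF1, and it is uncertain whether its sense tags stem from the mRNA alone.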

How the results depend on the processing

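Only 2 libraries per line limit the precision, most for genes with few tags. Counts over all genes and over the 44 members stayed within 1.5 times of those reported under DESeq2, its size factors, no filter, the replicate block, summed transcripts, both strands and no non-coding RNAs, as did those with each library left out, from 32 to 35 members called. The replicate numbers showed no pairing (correlation of deviations -0.032); with the replicate block 35 members were called (21 higher, 14 lower), the calls of OAS3 and IFIT3 being lost. On library totals 11572 of all genes were higher and 1757 lower. On that scaling 5 members were lower, 28 higher by 2-fold and 4 lower by 2-fold. It gave 10 receptors, kinases and factors higher and 1 lower, 4 induced genes lower, and 54 other pathway genes higher and 11 lower. It changed the sign of IFNAR2 (0.58), IFNGR1 (0.53), IFNGR2 (0.89), IRF2 (1.01), IRF9 (0.19), ISG20 (0.29), IFITM1 (0.69) and IL10RB (0.50). Only IFNAR2, IFNGR1, IFITM1 and IL10RB went from called lower to called higher. IFNGR2 and IRF2 were not called by TMM, and IRF9 and ISG20 were not called on library totals. The stricter filter, which leaves fewer genes to test, gave 4 induced genes lower, 4 members higher by 2-fold and 4 lower by 2-fold. Beyond these constructions the cause was not tested.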
